A study of Mus musculus with 4 samples.

Results

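The genes described here encode 8 proteins reported to bind the Wilms tumour protein Wt1 or to act with it on its targets: Basp1, Wtip, Pawr, Amer1, Ciao1, Cited2, U2af2 and Crebbp. They were taken by gene symbol, and each was listed once in both deposited tables, among 19500 genes that the tables share. Poly(A) RNA of mouse brain at embryonic day 13, on a C57BL/6 background, was sequenced for 2 Wt1_CKO samples (labelled as a conditional knockout of Wt1) and for 2 Wt1_flfl samples, which carry the floxed Wt1 alleles and are labelled as wild type. The labels name neither the Cre line, nor the cells it acts in, nor the brain region, nor whether a sample is 1 animal or a pool, so the p-values below reflect no more than the spread among these 4 samples, which may be technical. Wt1 itself was not analysed here, and the genotype labels therefore have no check on the targeted gene.

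Wt1 is a zinc finger protein that binds DNA and, in its KTS-containing forms, RNA. Whether it activates or represses a target depends on the proteins it meets: acetyltransferases such as CBP activate, while the corepressor Basp1 turns Wt1 sites towards repression. Several of these partners were found in kidney cells, gonads or tumours, and all of them also have roles that do not involve Wt1. The names of the 8 genes come from such work and cannot be checked with RNA counts.

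None of the 8 genes differed between Wt1_CKO and Wt1_flfl brain after adjustment for all genes tested. By edgeR's quasi-likelihood test with Benjamini-Hochberg adjustment the adjusted p was 0.99996 for each, and 0 of 8 passed 0.05. Over all 15933 genes tested 1 passed (0.00628%). At an unadjusted p under 0.05 stood 2 of the 8, Basp1 and Cited2, both lower in Wt1_CKO. Of all genes 1.56% stood there in either direction and 0.967% in the lower direction. The 8 genes were chosen with earlier results of these data known, so these shares are no test of the set. DESeq2 and limma-voom likewise called 0 of the 8 after adjustment, with 2 at an unadjusted p under 0.05 in each. Of all 15933 genes tested, 146 had an unadjusted p under 0.05 with DESeq2 and 232 with limma-voom. The log2 fold changes of Wt1_CKO over Wt1_flfl ran from -0.33 to 0.28, with a median of -0.030 beside 0.0066 over all genes tested. In both same-numbered comparisons 4 of the 8 were lower in Wt1_CKO (25.9% of all genes) and 2 were higher (27.0%). Both Wt1_CKO libraries lay below both Wt1_flfl libraries for 3 of the 8 (13.5% of all genes), and above them for 1 (13.4%).

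The libraries held 16219310 to 17704698 counts, and the 8 genes had between 106 and 16289 counts per library. Levels are given as CPM, counts per 1000000 after TMM scaling. The tissue label fits the markers measured: 8 neural progenitor genes summed to 2557 and 2952 CPM in Wt1_CKO, against 2567 and 2805 CPM in Wt1_flfl, and 8 neuron genes to 6099 and 5363 CPM in Wt1_CKO, against 6320 and 5722 CPM in Wt1_flfl. Markers of other tissues were also counted. Erythroid markers summed to 913 and 1779 CPM in Wt1_CKO and 968 and 1838 CPM in Wt1_flfl. The 6 choroid plexus markers summed to 60.8 and 26.8 CPM in Wt1_CKO and 23.9 and 49.6 CPM in Wt1_flfl. These sums hide a wider spread in single genes. Ttr had 40.3 and 0.987 CPM in Wt1_CKO and 0.249 and 12.4 CPM in Wt1_flfl. Clic6 had 3.32 and 0.407 CPM in Wt1_CKO and 0.0623 and 3.62 CPM in Wt1_flfl. Otx2 and Aqp1 varied less. Otx2 made up most of the sum in Wt1_CKO replicate 2 and in Wt1_flfl replicate 1. Endothelial markers ranged from 101 to 116 CPM over the 4 libraries, microglial ones from 23.5 to 25.2, and the 3 listed of 6 surface epithelium markers from 1.25 to 3.92. The 8 meningeal and mesenchymal markers summed to 51.4 and 49.9 CPM in Wt1_CKO and 51.4 and 86.3 CPM in Wt1_flfl, where replicate 2 stood apart. Their median log2 fold change was -0.39, with 4 lower and 0 higher in both same-numbered comparisons. None passed, and Col1a1 alone had an unadjusted edgeR p under 0.05 (log2 fold change -1.12, p 0.00407). In each of these lists every listed gene had counts in all 4 libraries.

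**Figure D1:**
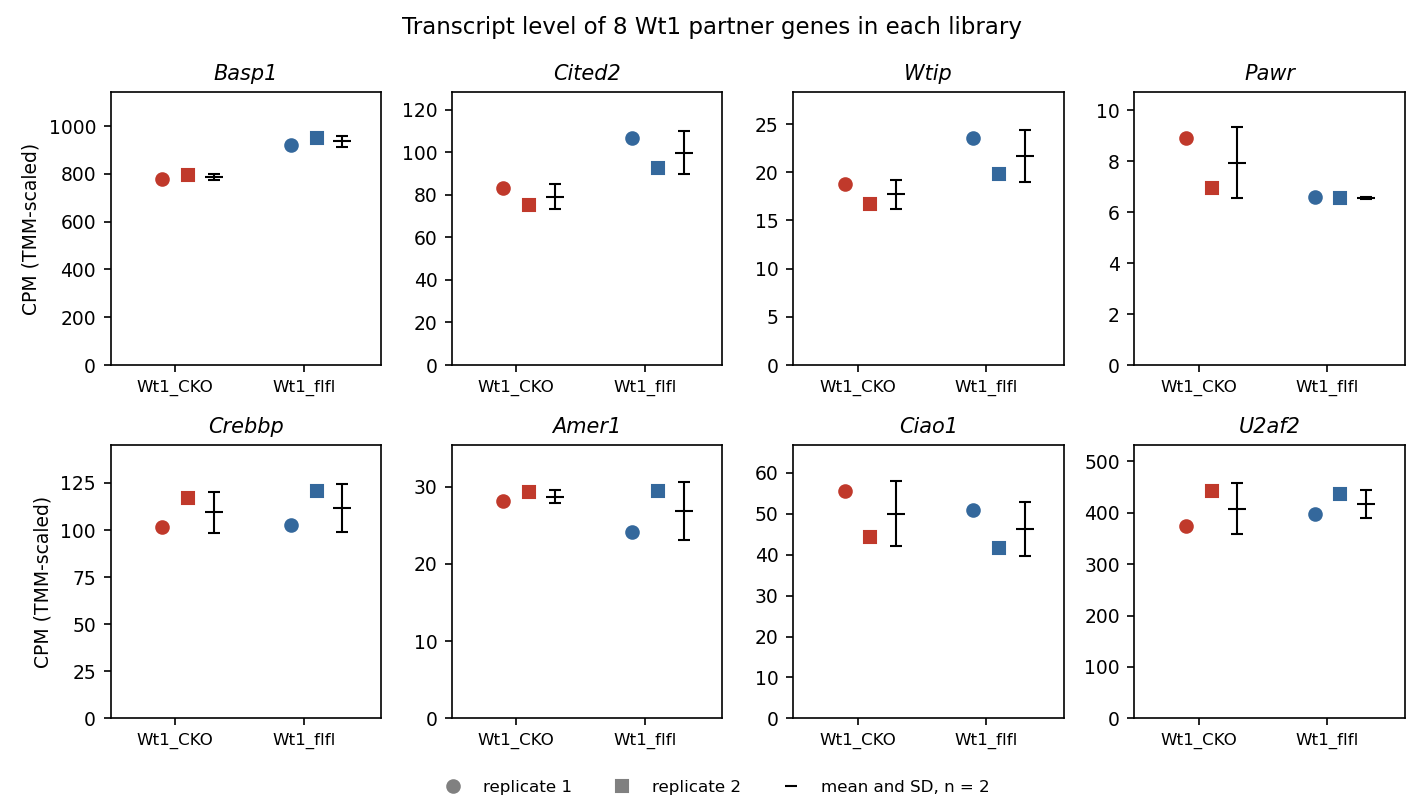
CPM of each gene (y axis, from 0, a separate scale per panel) in 2 Wt1_CKO libraries (red) and 2 Wt1_flfl libraries (blue); circles are replicate 1, squares replicate 2, and black marks the mean and SD. The red points lie below the blue ones for Basp1, Cited2 and Wtip and above them for Pawr, and the colours overlap for the other panels.

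Basp1 was the most abundant of the 8 and had the narrowest interval on its fold change. Its product is a myristoylated protein of neuronal growth cones that in the nucleus serves as a corepressor of Wt1. Basp1 (ENSMUSG00000045763, chromosome 15, 25363285 to 25413764, minus strand, GRCm38) had 778 and 796 CPM in the Wt1_CKO libraries, against 920 and 952 CPM in the Wt1_flfl libraries. Both Wt1_CKO values were below both Wt1_flfl values, and the gap between the groups was wider than the spread within either. Its log2 fold change was -0.25 (0.841-fold), with a 95% interval from limma-voom, not adjusted for the number of genes, of -0.48 to -0.022. The unadjusted edgeR p was 0.0420. Same-numbered libraries differed by -0.24 for replicate 1 and -0.26 for replicate 2 on the log2 scale, with exact counting intervals of -0.27 to -0.21 and -0.29 to -0.23. These intervals cover counting error only. The unadjusted edgeR p was 0.0568 without the low-count filter and 0.0159 with the replicate number in the model. With the replicate number 1146 of 15933 genes had an unadjusted p under 0.05, against 249 without it. The lowest adjusted p in 12 alternative fits was 0.526.

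Since Basp1 is abundant in neurons, it was set beside the 8 neuron markers, of which 0 passed. They had a median log2 fold change of -0.074, with 4 lower and 2 higher in Wt1_CKO in both same-numbered comparisons. Gad2, Tubb3, Elavl3 and Stmn2 were the 4 lower ones, at -0.23, -0.18, -0.18 and -0.16, and Neurod6 and Dcx the 2 higher ones, at 0.31 and 0.065. Relative to the summed neuron markers Basp1 stood at 0.128 and 0.148 in Wt1_CKO and 0.146 and 0.166 in Wt1_flfl. The groups overlapped on this scale, and the ratio was lower in Wt1_CKO for each replicate number. Against Tubb3 alone, a neuronal tubulin chosen after its values were seen and among the markers lower in Wt1_CKO, the ratio was 0.392 and 0.388 in Wt1_CKO and 0.387 and 0.432 in Wt1_flfl. That ratio was lower in Wt1_CKO only for replicate 2. The part of neuron number in the Basp1 values was not tested. In bulk RNA, fewer neurons and less RNA per neuron cannot be told apart.

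The Basp1 promoter is shown because Wt1, like the Egr proteins, binds GC-rich DNA. The motif GCGNGGGNG, which covers common forms of that site, was chosen after the values were seen and searched on both strands, overlaps counted. It was found in 12.3% of 32851 RefSeq promoter windows, each from 250 bases before to 50 after a gene start. Of the 8 genes 6 had a window there (GRCm38.p6), and Basp1, Crebbp and Ciao1 held a match. These 6 windows ran from 66.7% (Cited2) to 82.0% (Crebbp) G and C, all above the median of all windows. Windows of like G and C were not set beside them, so no excess of matches can be read from this. The window of Basp1, chr15:25413715-25414014, minus strand, has 78.0% G and C (all windows: median 52.7%) and 2 overlapping matches that begin 48 and 46 bases before the gene start. That of Cited2, chr10:17722978-17723277, plus strand, has 66.7% and no match. Both are printed 5′ to 3′ with matches in capitals. A match is not a binding site, and no binding was measured.
Basp1: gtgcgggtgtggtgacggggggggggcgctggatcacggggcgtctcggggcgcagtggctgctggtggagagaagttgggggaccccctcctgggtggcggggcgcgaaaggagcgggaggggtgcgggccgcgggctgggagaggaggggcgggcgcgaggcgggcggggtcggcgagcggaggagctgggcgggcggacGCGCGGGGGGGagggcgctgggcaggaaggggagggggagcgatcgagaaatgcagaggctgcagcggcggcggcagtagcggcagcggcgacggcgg
Cited2: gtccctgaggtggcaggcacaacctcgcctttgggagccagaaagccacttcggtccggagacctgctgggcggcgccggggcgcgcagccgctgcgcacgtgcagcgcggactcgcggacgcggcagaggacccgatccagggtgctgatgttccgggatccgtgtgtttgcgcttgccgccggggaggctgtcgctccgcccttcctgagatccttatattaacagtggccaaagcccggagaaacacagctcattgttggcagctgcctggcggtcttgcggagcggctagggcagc

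Among the proteins that work with Basp1 or resemble it, 9 of 9 listed genes were tested and none passed, with a median log2 fold change of -0.093. Marcksl1, a myristoylated relative of Marcks, had 1736 and 1690 CPM in Wt1_CKO, against 2103 and 1878 CPM in Wt1_flfl (log2 fold change -0.22, edgeR unadjusted p 0.0677). Gap43, a growth cone protein, had 364 and 265 CPM in Wt1_CKO and 419 and 333 CPM in Wt1_flfl. Marcksl1 did not overlap between groups, whereas Gap43 did. In this and each later list up to 2 genes were picked for their small p, which favours groups that do not overlap. Of the 9 genes, 3 were lower and 2 higher in Wt1_CKO in both same-numbered comparisons. The genes whose pattern over the 4 libraries was closest to that of Basp1 were Dhrs13 and Fam57b, at Euclidean distances of 0.0174 and 0.0291 between centred log2 CPM. With 4 libraries such likeness is common: 136 of the genes with at least 10 CPM lay within 0.1 of Basp1.

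Cited2 and Crebbp belong to the coactivator side. Cited2 has no DNA-binding domain of its own, recruits CBP and p300, and acts with Wt1 in the developing adrenal and gonad, while Crebbp encodes CBP itself. Cited2 (ENSMUSG00000039910, chromosome 10, 17723218 to 17725674, plus strand) had 83.2 and 75.1 CPM in the Wt1_CKO libraries, against 107 and 92.6 CPM in the Wt1_flfl libraries. The groups did not overlap, and this was the largest difference of the 8 genes. Its log2 fold change was -0.33 (0.794-fold; 95% interval -0.63 to -0.031), with an unadjusted edgeR p of 0.0312. Same-numbered libraries differed by -0.36 and -0.30, with counting intervals of -0.46 to -0.26 and -0.41 to -0.19. With the replicate number in the model the unadjusted edgeR p was 0.00182. That fit gave an unadjusted p under 0.05 for 1146 of 15933 genes, against 249 without the replicate number. The lowest adjusted p in 12 alternative fits was 0.222. Without Wt1_flfl replicate 1 the log2 fold change was -0.23.

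Crebbp (ENSMUSG00000022521, chromosome 16, 4081328 to 4213997, minus strand) had 102 and 117 CPM in Wt1_CKO, against 103 and 121 CPM in Wt1_flfl. Its libraries paired off by replicate number and the groups overlapped. The log2 fold change of -0.030 had an interval of -0.35 to 0.29, which spans 0.786-fold to 1.22-fold. Its sign depended on single libraries: it was 0.068 with Wt1_CKO replicate 1 left out and 0.093 with Wt1_flfl replicate 2 left out. The ratio of Cited2 to Crebbp was 0.818 and 0.641 in Wt1_CKO and 1.04 and 0.766 in Wt1_flfl, which overlapped but was lower in Wt1_CKO for each replicate number. The paralog Ep300, named after its values were seen, had 127 and 126 CPM in Wt1_CKO and 109 and 131 CPM in Wt1_flfl, and its log2 fold change of 0.077 did not pass. The ratio of Cited2 to Ep300 was 0.653 and 0.597 in Wt1_CKO and 0.978 and 0.709 in Wt1_flfl, which did not overlap. Cited2 alone did not overlap either, and Ep300 was lowest in Wt1_flfl replicate 1, so this ratio adds no separate result.

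The list of CBP and p300 relatives had 8 genes tested, none past the threshold, and a median log2 fold change of 0.059. Of these 2 were higher and 2 lower in Wt1_CKO in both same-numbered comparisons. The smallest unadjusted p in it belonged to Tfap2a, a transcription factor that uses Cited2 as a coactivator, with 0.843 and 1.10 CPM in Wt1_CKO and 0.872 and 2.57 CPM in Wt1_flfl. Its high value came from Wt1_flfl replicate 2. The acetyltransferase gene Kat2b had 28.8 and 32.0 CPM in Wt1_CKO against 25.2 and 29.1 CPM in Wt1_flfl, which overlapped. Trrap and Atg7 had the patterns closest to Crebbp, at distances of 0.00938 and 0.0139, and Begain and Wtip those closest to Cited2, at 0.0434 and 0.0563.

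**Figure D2:**
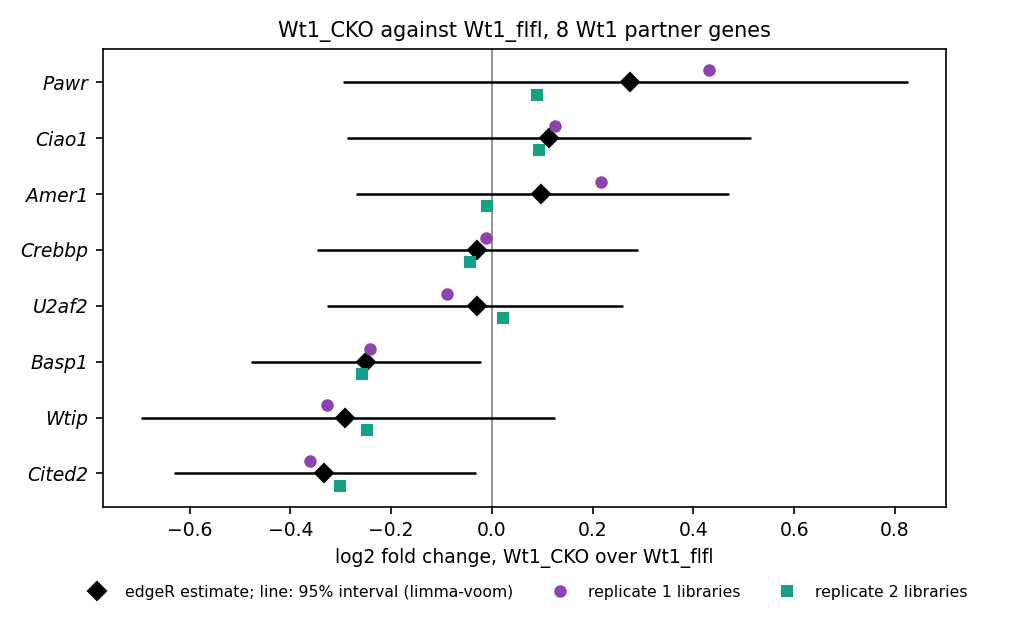
Log2 fold change of Wt1_CKO over Wt1_flfl (x axis) for each gene; diamonds are edgeR estimates over 4 libraries, black lines 95% limma-voom intervals, circles and squares the differences between same-numbered libraries. Only the intervals of Basp1 and Cited2 leave out 0, before any adjustment for the number of genes tested.

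Wtip and Amer1 encode proteins that also have roles at cell junctions or at the cell membrane. Wtip is a LIM domain protein of the Ajuba and zyxin family, found as a Wt1 binding protein in kidney podocytes. Wtip (ENSMUSG00000036459, chromosome 7, 34109543 to 34133268, minus strand) had 18.8 and 16.7 CPM in Wt1_CKO, against 23.6 and 19.8 CPM in Wt1_flfl. The groups did not overlap, though the gap was narrower than the spread within either. Its log2 fold change of -0.29 had an interval of -0.70 to 0.13 and an unadjusted edgeR p of 0.138. Leaving out Wt1_flfl replicate 1 gave -0.16, and leaving out Wt1_flfl replicate 2 gave -0.41. Of the 6 other LIM proteins of the family 0 passed, with a median of -0.0094. Zyx, a focal adhesion protein, had 70.9 and 80.8 CPM in Wt1_CKO and 81.3 and 88.7 CPM in Wt1_flfl, and Fblim1 had 17.9 and 23.2 CPM in Wt1_CKO and 23.1 and 25.4 CPM in Wt1_flfl. Zyx values did not overlap between groups, and those of Fblim1 did. Of the 6, 2 were lower and 2 higher in both same-numbered comparisons. Begain and 2900011O08Rik had the patterns closest to Wtip, at 0.0330 and 0.0473.

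Amer1, also called Wtx, is an X-linked gene lost in some Wilms tumours, and its product holds Apc at the membrane and promotes breakdown of beta-catenin. Amer1 (ENSMUSG00000050332, chromosome X, 95420318 to 95444872, minus strand) had 28.1 and 29.3 CPM in Wt1_CKO, against 24.2 and 29.5 CPM in Wt1_flfl. Wt1_flfl replicate 1 was the lowest library and the other 3 lay close together. The log2 fold change was 0.097 (interval -0.27 to 0.47), and it was -0.037 without Wt1_flfl replicate 1. The libraries differed in Xist, the RNA of the inactive X in females, which had 4 and 16472 counts in Wt1_CKO and 13086 and 16129 counts in Wt1_flfl. Amer1 in the Xist-low library, 28.1 CPM, lay within the range of the other 3. Only Wt1_CKO replicate 1 was Xist-low, so Xist was not balanced between the genotypes in the comparisons that include this library. The replicate 2 comparison and the fits without Wt1_CKO replicate 1 set only Xist-high libraries against each other. The part of sex in the values was not tested.

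In the list of Amer relatives and the beta-catenin destruction complex 9 genes were tested and 0 passed, with a median of 0.022. Ctnnb1, beta-catenin itself, had 795 and 784 CPM in Wt1_CKO, against 705 and 732 CPM in Wt1_flfl (log2 fold change 0.14, interval -0.093 to 0.36). Amer3 had 31.7 and 34.7 CPM in Wt1_CKO and 35.6 and 38.7 CPM in Wt1_flfl. Both genes kept the groups apart, and neither had an unadjusted p under 0.05. Of the 9, 4 were lower and 2 higher in both same-numbered comparisons. A830082K12Rik and Gskip had the patterns closest to Amer1, at 0.0133 and 0.0179.

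Pawr was the least counted of the 8 genes. Its product, Par-4, binds the zinc fingers of Wt1, modulates its activity on promoters, and promotes apoptosis. Pawr (ENSMUSG00000035873, chromosome 10, 108332121 to 108414240, plus strand) had 159 and 120 counts in Wt1_CKO, or 8.94 and 6.97 CPM, against 106 and 112 counts in Wt1_flfl, or 6.60 and 6.55 CPM. Both Wt1_CKO values were higher, replicate 2 only slightly. The log2 fold change of 0.28 had an interval of -0.30 to 0.83, the widest of the 8. The replicate 1 libraries differed by 0.43 (counting interval 0.074 to 0.81) and the replicate 2 libraries by 0.089 (-0.29 to 0.47). Leaving out Wt1_CKO replicate 1 gave 0.084 and leaving out Wt1_CKO replicate 2 gave 0.44, so its size rests on Wt1_CKO replicate 1.

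Of 4 genes for kinases and a scaffold that act with Par-4, 0 passed and 3 were lower in Wt1_CKO in both same-numbered comparisons, with a median of -0.11. Dapk3, a death-associated kinase, had 32.2 and 36.0 CPM in Wt1_CKO, against 41.2 and 38.2 CPM in Wt1_flfl. Sqstm1, a scaffold for atypical protein kinase C, had 183 and 185 CPM in Wt1_CKO, against 202 and 206 CPM in Wt1_flfl. Neither gene overlapped between groups, and their unadjusted edgeR p was 0.140 and 0.202. Both were picked for the smallest p of the list, so their separation is no independent result. Cdh7 and Hbp1 were closest to Pawr in pattern, at 0.0228 and 0.0259.

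Ciao1 and U2af2 serve basic cell functions. Ciao1 is a WD repeat protein that helps to hand iron-sulphur clusters to cytosolic and nuclear enzymes and was isolated as a Wt1 binding protein. Ciao1 (ENSMUSG00000003662, chromosome 2, 127240938 to 127247816, minus strand) had 55.7 and 44.4 CPM in Wt1_CKO, against 51.0 and 41.6 CPM in Wt1_flfl. In both genotypes replicate 1 was the higher library, and the groups overlapped. The log2 fold change of 0.11 (interval -0.29 to 0.51) turned to -0.061 without Wt1_CKO replicate 1 and to -0.028 without Wt1_flfl replicate 2. Of 8 other genes of the assembly pathway 0 passed, with a median of 0.063, and 3 were higher and 0 lower in both same-numbered comparisons. Fam96a, a gene of this pathway, had 60.8 and 63.5 CPM in Wt1_CKO, against 55.1 and 52.4 CPM in Wt1_flfl (unadjusted edgeR p 0.0982). Its relative Fam96b had 27.9 and 36.2 CPM in Wt1_CKO and 33.8 and 17.6 CPM in Wt1_flfl, which overlapped. Eif3e and Mrpl10 were closest to Ciao1, at 0.0162 and 0.0235.

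U2af2 encodes the large subunit of U2AF, which binds the polypyrimidine tract at the end of introns and binds the KTS-containing form of Wt1. U2af2 (ENSMUSG00000030435, chromosome 7, 5062143 to 5079938, plus strand) had 373 and 443 CPM in Wt1_CKO, against 398 and 436 CPM in Wt1_flfl. Its Wt1_CKO libraries enclosed both Wt1_flfl libraries. The log2 fold change was -0.030 (interval -0.33 to 0.26), but 0.088 with Wt1_CKO replicate 1 left out and 0.038 with Wt1_flfl replicate 2 left out. Among 10 other genes of 3′ splice site recognition 0 passed, with a median of -0.057, and 4 were higher and 4 lower in both same-numbered comparisons. Dek, a chromatin protein that aids U2AF, had 187 and 192 CPM in Wt1_CKO, against 165 and 174 CPM in Wt1_flfl. Puf60, a relative of U2AF65, had 233 and 260 CPM in Wt1_CKO, against 276 and 270 CPM in Wt1_flfl. Neither overlapped between groups, and neither had an unadjusted p under 0.05. Slc27a3 and Idnk were closest to U2af2, at 0.00603 and 0.00719, and 434 genes lay within 0.1 of it.

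**Figure D3:**
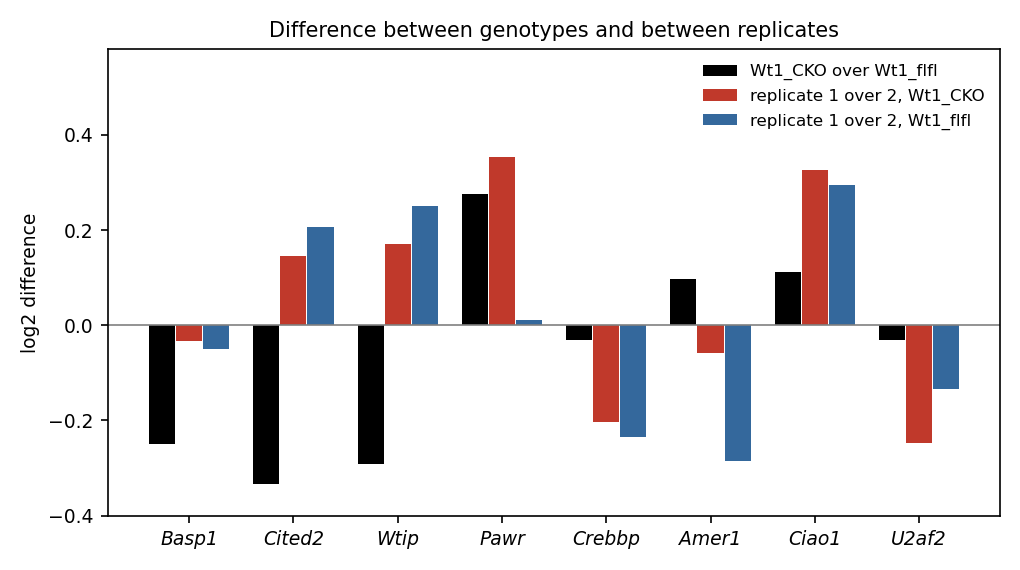
Log2 difference (y axis) between Wt1_CKO and Wt1_flfl (black, edgeR) and between replicate 1 and replicate 2 within Wt1_CKO (red) and within Wt1_flfl (blue). For Ciao1, U2af2, Crebbp and Amer1 the mean replicate difference is larger than the genotype difference, and for Basp1 it is small.

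The replicate number went with larger differences than the genotype for 4 of the 8 genes, as it did for 61.7% of all genes tested. Ciao1 was higher in replicate 1 by 0.33 on the log2 scale in Wt1_CKO and by 0.29 in Wt1_flfl. U2af2 differed by -0.25 in Wt1_CKO and -0.13 in Wt1_flfl, and Crebbp by -0.20 in Wt1_CKO and -0.24 in Wt1_flfl. Basp1, in contrast, differed by -0.033 in Wt1_CKO and -0.050 in Wt1_flfl. All 8 genes had the same sign of this difference in both genotypes, beside 64.7% of all genes. No label says what the number stands for.

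Levels per length were set side by side as CPM per kilobase of annotated exon. Basp1 stood first with 429 ± 43.4 CPM per kilobase (SD, n = 4 libraries), above 99.7% of the genes tested. U2af2 followed with 100.3 ± 7.98, Cited2 with 36.4 ± 5.56 and Ciao1 with 15.1 ± 2.00 CPM per kilobase. Wtip with 8.27 ± 1.22 and Crebbp with 8.17 ± 0.727 did not differ beyond their spread. Pawr with 4.16 ± 0.649 and Amer1 with 3.27 ± 0.290 were lowest, and Amer1 lay above 40.1% of the genes tested. Apart from Wtip and Crebbp, no 2 neighbours in this order had overlapping values over the 4 libraries. With the longest transcript as length, Crebbp stood above Wtip and the rest of the order was the same.

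**Figure D4:**
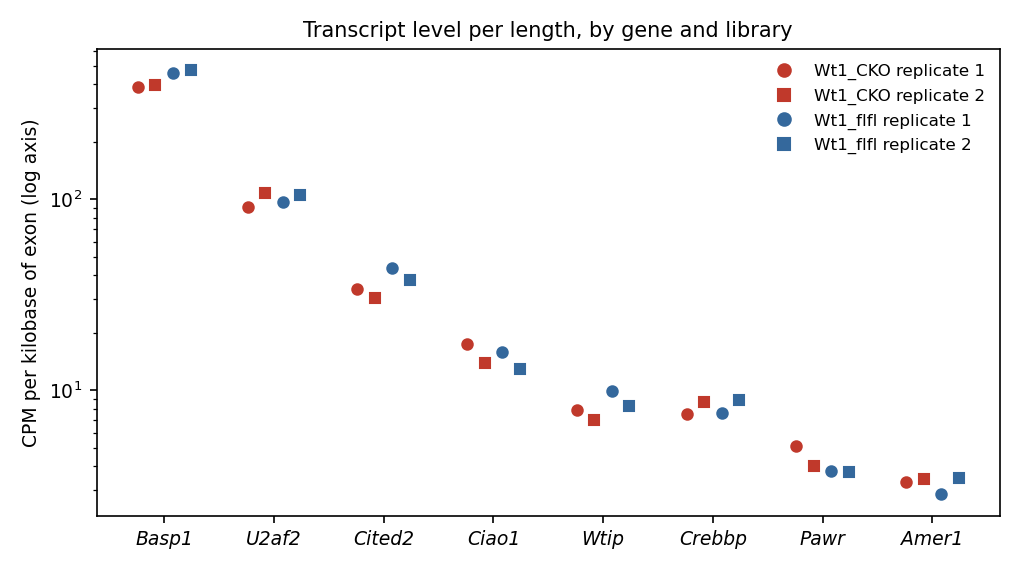
CPM per kilobase of annotated exon (y axis, log scale) of each gene in 4 libraries (red Wt1_CKO, blue Wt1_flfl; circles replicate 1, squares replicate 2), ordered by the mean. The order runs from Basp1 at 429 to Amer1 at 3.27, and the spread within a gene is small beside the steps between most genes.

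The authors' deposited tables compare 1 library with 1 library and mark none of the 8 genes, where they mark 3.20% of genes for replicate 1 and 3.19% for replicate 2. Their adjusted p was under 0.05 for 6 of the 8 genes in the authors' deposited table for replicate 1 (23.3% of its genes) and for 2 in that for replicate 2 (19.2%). Basp1 and Cited2 are the genes under 0.05 in both, with log2 values of -0.22 and -0.25 for Basp1 and -0.34 and -0.29 for Cited2 in the authors' deposited tables. Such p-values hold counting error and no spread between samples. They depend on how many counts a gene has, and the shares cover all listed genes, including those of few counts.

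Further proteins reported to bind or act with Wt1 were also compared. Of 12 genes 11 were tested and 0 passed, with a median log2 fold change of 0.015, and 3 were higher and 2 lower in Wt1_CKO in both same-numbered comparisons. Fhl2, a LIM-only coactivator, had 1.46 and 1.63 CPM in Wt1_CKO, against 2.43 and 2.45 CPM in Wt1_flfl (log2 fold change -0.66, interval -1.46 to 0.15, unadjusted edgeR p 0.0960). Trp73, a p53 relative, had 28.5 and 25.9 CPM in Wt1_CKO, against 22.9 and 23.3 CPM in Wt1_flfl. Both kept the groups apart without passing. Over the 8 lists together, 64 of 65 genes were tested. None had even an unadjusted p under 0.05, beside 1.56% of all genes, and their median was 0.012. Both Wt1_CKO libraries lay below both Wt1_flfl libraries for 12 of the 64 (13.5% of all genes) and above them for 10 (13.4%).

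**Figure D5:**
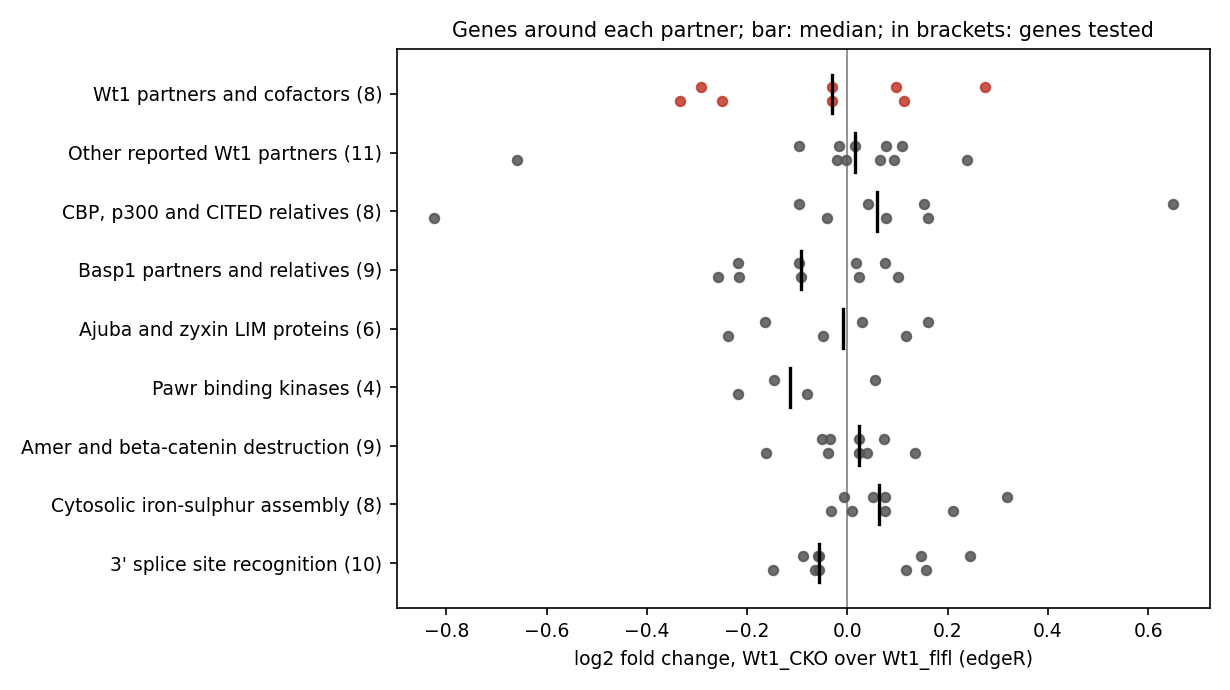
The edgeR log2 fold change of Wt1_CKO over Wt1_flfl (x axis) for each tested gene of the 8 partner genes (red) and of the lists around them (grey), with the median of each list as a bar. The medians lie between -0.11 and 0.063, and the farthest point on each side, Tfap2a at -0.83 and Cited4 at 0.65, are genes of few counts.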

How the data were processed

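The authors deposited 1 table for each pair of same-numbered samples, with whole-number counts per Ensembl gene, per the file headers. The deposited CPM columns are those counts per 1000000, the deposited fold ratio and log2 columns are Wt1_CKO over Wt1_flfl, and the deposited p-values set single libraries against each other with a test whose name is not given in the sources used here. HTSeq 0.6.0, TopHat2 2.0.12 and Bowtie2 2.2.3, with the build mm9, are named per the submitters' processing notes. Positions in the tables equalled those of GENCODE vM21 (GRCm38) for 91.5% of genes found there and for 7 of the 8 genes (not Basp1), so they are given as GRCm38. The labels do not say whether libraries kept strand. No exon of the 8 genes was overlapped by another annotated gene.

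For genes in both tables, counts entered edgeR 4.0.16 (R 4.3.3): filterByExpr with a minimum count of 10, TMM scaling, genotype as the only term, Benjamini-Hochberg adjustment over all genes, threshold 0.05. Intervals come from limma 3.58.1 (voom). Same-numbered differences use log2 CPM with a prior count of 2. Alternatives included DESeq2 1.42.0.

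The genes and lists were chosen with earlier results of these data known. Each list names up to 2 genes by smallest p, and each of the 8 genes the 2 genes of at least 10 CPM nearest in pattern.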

Additional observations from a re-analysis of the deposited data

How the results depend on the processing

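The 8 genes had 0 adjusted calls in each of the 12 alternative fits, with a lowest adjusted p of 0.222 (Cited2 with the replicate block). One of these, a mean of at least 10 CPM, tested 7 of the 8, as Pawr lies below it. The count of all genes past the threshold was 1, and it was 42 with the replicate block, 5 with DESeq2, and 3 to 73 when 1 library was left out. It stayed at 1 under the other settings. The direction turned in 7 of 95 values, each with 1 library left out. There the log2 fold change of Ciao1 ran from -0.061 to 0.27, of U2af2 from -0.16 to 0.088, of Crebbp from -0.14 to 0.093 and of Amer1 from -0.037 to 0.25. The cause was not tested. Basp1, Cited2, Wtip and Pawr kept their direction in each fit that tested them.

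Samples of the same number share only that number in the labels. Across 15933 genes the replicate differences of the 2 genotypes had a correlation of 0.281, and the block changed no call of the 8 genes. With the longest transcript as length, U2af2 had 171, Crebbp 10.2 and Wtip 10.05 CPM per kilobase. Other prior counts moved no same-numbered difference beyond its counting interval. With n = 2 per group, the intervals of the 8 genes are between 0.456 and 1.12 wide on the log2 scale.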
